A study of Sus scrofa with 6 samples.

Results

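Annexins are soluble proteins that bind acidic phospholipids of membranes when calcium is raised, through a conserved core of repeats, and that differ in their N-terminal tails. They take part in membrane repair, vesicle traffic and the link between membranes and the cytoskeleton, and some act outside the cell in the control of inflammation and clotting. Of 9 annexin genes looked for (ANXA1, ANXA2, ANXA3, ANXA4, ANXA5, ANXA6, ANXA7, ANXA8 and ANXA11), 5 had a probe set that the array annotation assigns to that gene alone. These are ANXA1, ANXA2, ANXA4, ANXA5 and ANXA11, 5 of 6765 genes named on the array, with 6 probe sets among 23999 tested, since ANXA4 has a pair of them. The other 4 genes are not analysed here because no probe set carries their symbol.

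Transcript levels were measured in the renal medulla of adult female Large White-Landrace crossbred pigs, taken 24 hours after the intervention. The CPB pigs (n = 3) had 2.5 hours of cardiopulmonary bypass through a neck dissection under general anaesthesia. The Sham pigs (n = 3) had general anaesthesia for 2.5 hours with the same dissection and the same heparinisation, so anaesthesia, surgery and heparin are common to both groups. One array was hybridised per animal, and values are RMA intensities, which are background-corrected and equalised over the arrays, on the linear scale.

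The median intensity of the 6 arrays lay between 94.62 and 96.93. Loop of Henle genes were measured on every array, with KCNJ1, a potassium channel of that segment, at 834.9 to 2127.5 in CPB and 881.4 to 2219.1 in Sham. UMOD, SLC12A1 and AQP2, which also define medullary tubules, have no probe set named here. The arrays differed strongly in markers of the proximal tubule, a part of the nephron found chiefly in renal cortex. The mean of 17 measured markers, each centred on its mean log2 intensity over the 6 arrays, was 1.30, -1.52 and 1.55 in CPB 1, CPB 2 and CPB 3, against -2.02, 1.03 and -0.34 in Sham 1, Sham 2 and Sham 3. CPB 2 was thus the only CPB animal with a negative mean, and Sham 2 the only Sham animal with a positive one. CPB 2 lay far from the rest of its group, whereas the Sham animals were spread out, with Sham 3 nearer to Sham 2 than to Sham 1. Each annexin is given below also without CPB 2 or Sham 2.

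To compare the groups, limma's moderated test was fitted to log2 intensity over all 23999 probe sets with Benjamini-Hochberg adjustment. Of the 6 annexin probe sets, 5 had a lower mean in CPB than in Sham, where 44.1% of all probe sets did. The median log2 difference, CPB minus Sham, was -0.52 over the annexin probe sets and 0.03 over all probe sets. The study's threshold (p under 0.05 without adjustment and at least 1.6-fold) was met by none of the 6, while 0.304% of all probe sets met it. None had an unadjusted p under 0.05 in limma, where 1.4% of all probe sets did, and none had one in the methods' t-test on log2 values, where 2.08% did. None passed limma's adjusted p of 0.05, where the share over all probe sets was 0% and the adjusted p of each annexin was 0.995. The groups did not overlap for 1 of the 6, which was lower in CPB, where 5.27% of all probe sets had no overlap and 1.89% had none and were lower. Since medulla was measured in bulk, fewer cells of a type and less RNA per cell cannot be told apart.

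**Figure D1:**
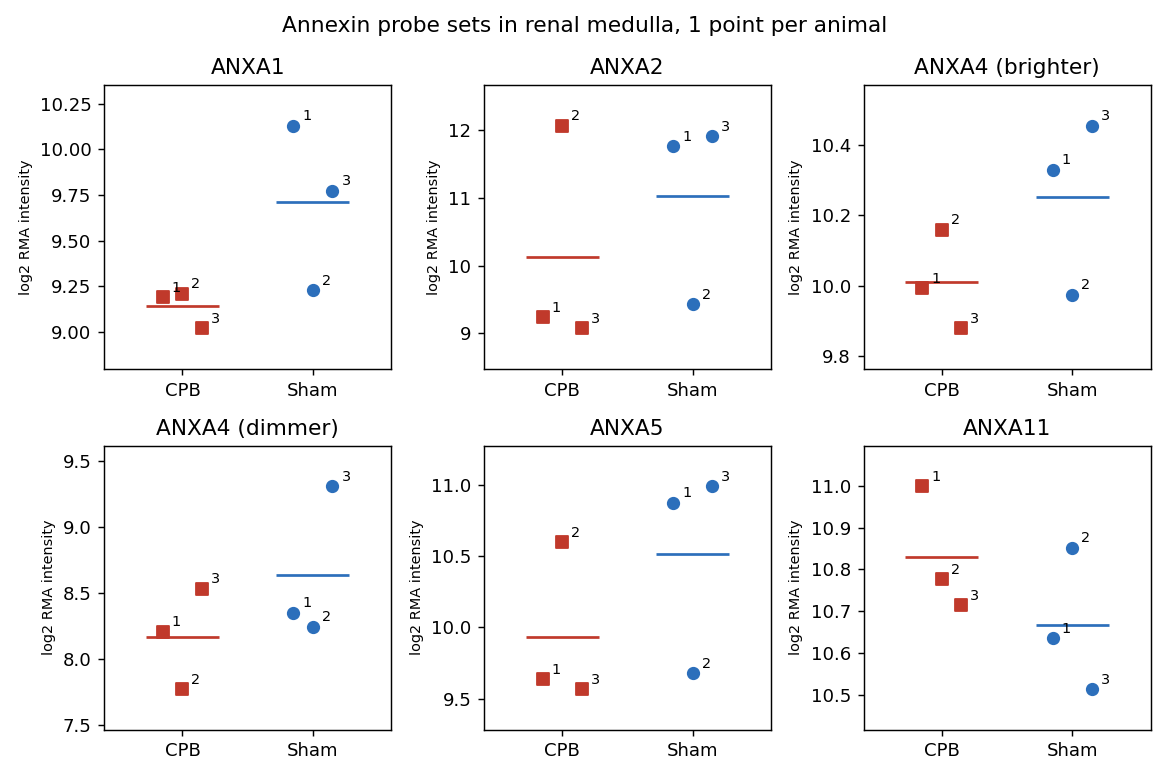
Log2 RMA intensity of the 6 annexin probe sets, with 1 point per animal (CPB, squares; Sham, circles; the digit is the replicate number) and a line at each group mean. Each panel has its own axis. ANXA1 is the only panel where the groups do not overlap, and in the ANXA2 and ANXA5 panels CPB 2 lies high among the CPB animals and Sham 2 low among the Sham animals.

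ANXA1 is the annexin that glucocorticoids induce in rodent and human cells, and its N-terminal peptides act on formyl peptide receptors of leukocytes to limit inflammation. Its intensity was 583.7, 592.1 and 518.7 in CPB 1, CPB 2 and CPB 3, against 1121.4, 599.4 and 875.7 in Sham 1, Sham 2 and Sham 3. Every CPB animal lay below every Sham animal, but the gap between CPB 2 and Sham 2 was only that of 592.1 to 599.4. The CPB animals lay within 1.14-fold of each other and the Sham animals within 1.87-fold. The means were 565 ± 40.1 in CPB and 866 ± 261 in Sham (SD, n = 3 each). The log2 difference was -0.57 (standard error 0.24, 95% confidence interval -1.16 to 0.01; limma adjusted p = 0.995). Before adjustment 1.55% of all probe sets had a smaller p than ANXA1. With 3 animals against 3 the smallest two-sided p of an exact permutation test is 0.1, which is the value that groups without overlap give.

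Of the annexin probe sets that of ANXA1 had the smallest p, and its difference turned on which Sham animals were kept. Without Sham 1, the highest, the log2 difference was -0.36. Without Sham 2, the lowest Sham animal, it was -0.81, with an unadjusted limma p of 0.00386 and an adjusted p of 0.533. The study's threshold was then met, as it was by 701 of all 23999 probe sets without Sham 2, against 73 with all arrays. The log2 difference of ANXA1 without CPB 2 was -0.61.

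ANXA2 forms a complex with S100A10 at the inner face of the plasma membrane, and on the cell surface this complex binds plasminogen and its activator. Its intensity was 604.4, 4290.7 and 538.7 in CPB 1, CPB 2 and CPB 3, against 3473.9, 688.8 and 3851.8 in Sham 1, Sham 2 and Sham 3. The 6 animals fell at high and low levels with none in between, and each group held animals at both levels: CPB 2 was the highest of all, and Sham 2 lay near CPB 1 and CPB 3. The highest animal exceeded the lowest 7.96-fold, and both belonged to the CPB group. Within Sham the range was 5.59-fold. Only 1.59% of all probe sets had a wider range over the 6 arrays.

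The means of ANXA2 were 1811 ± 2147 in CPB and 2672 ± 1727 in Sham (SD, n = 3 each), so the spread within a group exceeded the difference between groups. The log2 difference was -0.91 (standard error 1.03, 95% confidence interval -3.42 to 1.61; limma adjusted p = 0.995). It was -1.88 without CPB 2 and -1.71 without Sham 2, neither of which had an unadjusted p under 0.05. It was between -0.38 and -0.54 when any one of the other arrays was left out.

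ANXA5 binds phosphatidylserine with high affinity, which is why its labelled form marks dying cells, and it shields such membranes from clotting factors. Its intensity was 797, 1546.3 and 758.7 in CPB 1, CPB 2 and CPB 3, against 1874.9, 820.4 and 2031.2 in Sham 1, Sham 2 and Sham 3. The same animals were high and low as for ANXA2, although CPB 2 now lay below Sham 1 and Sham 3 and the range over all animals was narrower, at 2.68-fold. The means were 1034 ± 444 in CPB and 1576 ± 659 in Sham (SD, n = 3 each). The log2 difference was -0.58 (standard error 0.44, 95% confidence interval -1.66 to 0.50; limma adjusted p = 0.995). Without Sham 2, the lowest Sham animal, it was -0.997 with an unadjusted limma p of 0.0392 (adjusted p = 0.533). That met the study's threshold, as 701 of all 23999 probe sets did without Sham 2, against 73 with all arrays. The log2 difference of ANXA5 was -0.91 without CPB 2 and -0.34 without Sham 3.

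ANXA4 is an annexin of epithelial cells that assembles on membranes and stiffens them. On its brighter probe set the intensity was 1018.6, 1143.7 and 941.4 in CPB 1, CPB 2 and CPB 3, against 1287.8, 1006.2 and 1404.7 in Sham 1, Sham 2 and Sham 3. Sham 2 lay inside the CPB range, and the 6 animals lay within 1.49-fold. The log2 difference was -0.24 (standard error 0.17, 95% confidence interval -0.65 to 0.16; limma adjusted p = 0.995). Without Sham 2, the lowest Sham animal, it was -0.38 with an unadjusted limma p of 0.0361 (adjusted p = 0.533). An unadjusted limma p under 0.05 was then reached by 2217 of all 23999 probe sets, against 336 with all arrays. The log2 difference of this probe set was -0.32 without CPB 2 and -0.14 without Sham 3.

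On the dimmer ANXA4 probe set the intensity was 295.3, 218.3 and 369.5 in CPB 1, CPB 2 and CPB 3, against 326.1, 303 and 633.5 in Sham 1, Sham 2 and Sham 3. Sham 3 alone was high, and CPB 2 was the lowest animal, whereas on the brighter probe set CPB 2 was the highest CPB animal. The groups differed by -0.46 on the log2 scale (standard error 0.34, 95% confidence interval -1.30 to 0.37; limma adjusted p = 0.995), and by -0.13 without Sham 3, -0.27 without CPB 2 and -0.66 without Sham 2. The probe sets had the same direction of mean difference and Sham 3 as the highest animal in common, but they ordered the CPB animals differently.

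ANXA11 has a long N-terminal tail that binds the calcium sensor PDCD6, and it tethers RNA granules to lysosomes in neurons. It was the only annexin measured here with a higher mean in CPB. Its intensity was 2047.1, 1754.4 and 1679.3 in CPB 1, CPB 2 and CPB 3, against 1589.8, 1848.3 and 1461.4 in Sham 1, Sham 2 and Sham 3. Sham 2 lay inside the CPB range, and the 6 animals lay within 1.401-fold, so that 59.5% of all probe sets had a wider range. The means were 1827 ± 194 in CPB and 1633 ± 197 in Sham (SD, n = 3 each). The log2 difference was 0.16 (standard error 0.14, 95% confidence interval -0.19 to 0.51; limma adjusted p = 0.995), and it was 0.08 without CPB 1, 0.09 without Sham 3, 0.26 without Sham 2 and 0.19 without CPB 2. The interval leaves out a rise or a fall of 1.6-fold for this gene. The interval of the brighter ANXA4 probe set leaves out both as well. Those of ANXA1, ANXA5 and the dimmer ANXA4 probe set leave out such a rise but not such a fall. That of ANXA2 leaves out neither.

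**Figure D2:**
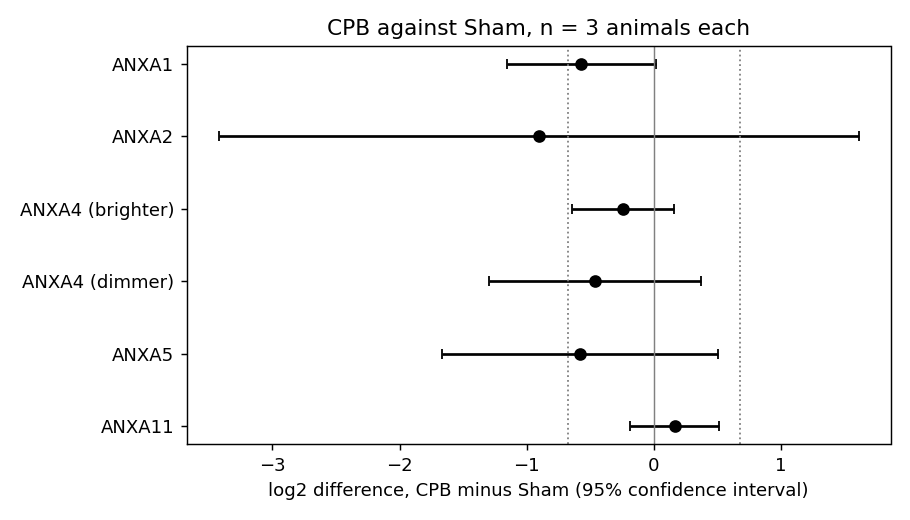
Log2 difference of each annexin probe set, CPB minus Sham (points), with limma's 95% confidence interval (bars), for 3 animals in each group. Dotted lines mark a 1.6-fold difference in each direction. All intervals include 0, and that of ANXA2, from -3.42 to 1.61, is the widest.

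**Figure D3:**
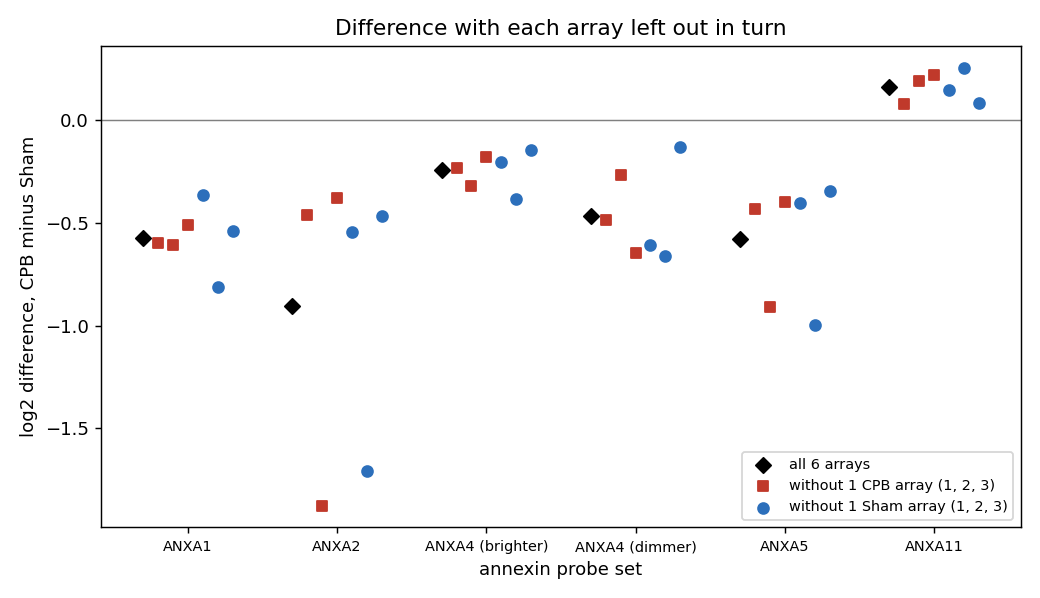
Log2 difference of each annexin probe set, CPB minus Sham, with all 6 arrays (diamonds) and with 1 CPB array (squares) or 1 Sham array (circles) left out, in the order of the replicate numbers. No probe set changed direction. ANXA2 moved most, to -1.88 without CPB 2 and -1.71 without Sham 2.

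The annexins differed among themselves in how they varied over the animals. The closest to ANXA2 was ANXA5, with a root mean square difference of 0.77 between their centred log2 values over the 6 arrays, while ANXA11 was the farthest from it, at 1.45. ANXA1, ANXA2, ANXA5 and the brighter ANXA4 probe set were all above their own means in Sham 1 and Sham 3 and all below them in CPB 1, CPB 3 and Sham 2. CPB 2 divided these genes, with centred log2 values of 1.49 for ANXA2, 0.37 for ANXA5, 0.03 for the brighter ANXA4 probe set and -0.22 for ANXA1. ANXA11 was farthest above its mean in CPB 1 and Sham 2, at 0.25 and 0.10, and below it in Sham 1 and Sham 3, at -0.11 and -0.24.

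Markers of the cell types that a block of medulla can hold also varied between animals, as their means in the map of annexins and marker lists show. The high animals of ANXA2 and ANXA5 were the CPB 2, Sham 1 and Sham 3 animals, which had the lowest means of the proximal tubule markers. All 17 of 26 listed proximal tubule markers that were measured had a higher mean in CPB, at a median log2 difference of 0.94. None had an unadjusted p under 0.05. Of all probe sets, 44.1% had a lower mean in CPB and 1.4% had such a p. Most of these markers rose and fell together over the animals, so they are not separate results, while AQP1 hardly varied (log2 difference 0.03). The summed intensity of the 17 markers ranged between 8866 and 43980 in CPB and between 8551 and 34757 in Sham. LRP2, the endocytic receptor megalin, was at 2468.8, 169.2 and 2740.2 in CPB 1, CPB 2 and CPB 3, against 180.8, 2389.6 and 898.5 in Sham 1, Sham 2 and Sham 3. It was low in CPB 2 and Sham 1, where ANXA2 was high, but in between in Sham 3, where ANXA2 was high too. LRP2 is a single marker named from the list as an example. No marker was at 0, and the lowest intensity in the list was 14.7.

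Markers of urothelium, the lining of the renal pelvis, ran the other way. The mean of the 6 measured of 17 listed was -0.82, 0.72 and -0.88 in CPB 1, CPB 2 and CPB 3, against 0.43, -0.88 and 1.43 in Sham 1, Sham 2 and Sham 3. Their summed intensity ranged between 765 and 3313 in CPB and between 633 and 3598 in Sham, their lowest intensity was 28.4, and none had an unadjusted p under 0.05 in limma. UPK3A, a uroplakin of the apical plaques of this lining, was at 55.4, 836.6 and 56.6 in CPB 1, CPB 2 and CPB 3, against 415.2, 61.6 and 527.6 in Sham 1, Sham 2 and Sham 3. These are the same high and low animals as for ANXA2, and UPK3A was picked out after its values were seen. Not all 6 markers had this pattern: UPK1A had its lowest intensity in CPB 2, at 30.3, and UPK2 lay between 58.4 and 86 over the 6 animals. The part of either marker list in the annexin differences was not tested. With the proximal tubule mean as a covariate, the log2 difference was -0.13 for ANXA2, -0.27 for ANXA5 and -0.44 for ANXA1. It was -0.16 and -0.56 for the brighter and the dimmer ANXA4 probe set and 0.13 for ANXA11. None of these annexin probe sets had an unadjusted p under 0.05 in limma. Of all 23999 probe sets, 632 had such a p in that fit, against 336 with group as the only term.

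The other marker lists covered less range between animals. Endothelial markers (13 of 20 measured) had centred means of -0.36, 0.39 and -0.50 in the CPB animals and 0.52, -0.17 and 0.11 in the Sham animals, in the order of their numbers. In CPB 7 of the 13 had a lower and 6 a higher mean. Of the endothelial markers 1, the junction protein gene PECAM1, was lower in CPB at the study's threshold, by -0.75 (standard error 0.29, limma adjusted p = 0.995). Myeloid and granulocyte markers (16 of 22 measured) had means of -0.10, -0.07 and -0.21 in CPB and 0.23, -0.07 and 0.21 in Sham. Their summed intensity ranged between 1430 and 1587 in CPB and between 1586 and 2307 in Sham, and their lowest intensity was 16.5. In CPB 9 of the 16 had a lower and 7 a higher mean. Of these markers 2, the inhibitory Fc receptor FCGR2B and the lipoprotein receptor TLR2, were lower at the study's threshold. The paper reports FCGR2B, TLR2 and CD53 of this list, and PECAM1, as lower in CPB on these same arrays. Their values here, and their share in the list means, thus give no separate support. As with ANXA1, the mean of the list was high in Sham 1 and Sham 3, and Sham 2 lay close to the CPB animals. Single markers went the other way: CD14, S100A8, S100A9 and ITGAM had their lowest values in Sham 1 and Sham 3. ITGAM was higher in every CPB animal (31.6 to 33) than in every Sham animal (23.5 to 29.4). The part of the myeloid and granulocyte markers in the ANXA1 difference was not tested. The median log2 difference was -0.55 for the urothelium markers, of which 5 of 6 had a lower mean in CPB, -0.25 for the myeloid, -0.41 for the endothelial, -0.36 for the fibroblast and smooth muscle, -0.14 for the collecting duct, -0.06 for the lymphocyte and -0.02 for the loop of Henle markers.

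**Figure D4:**
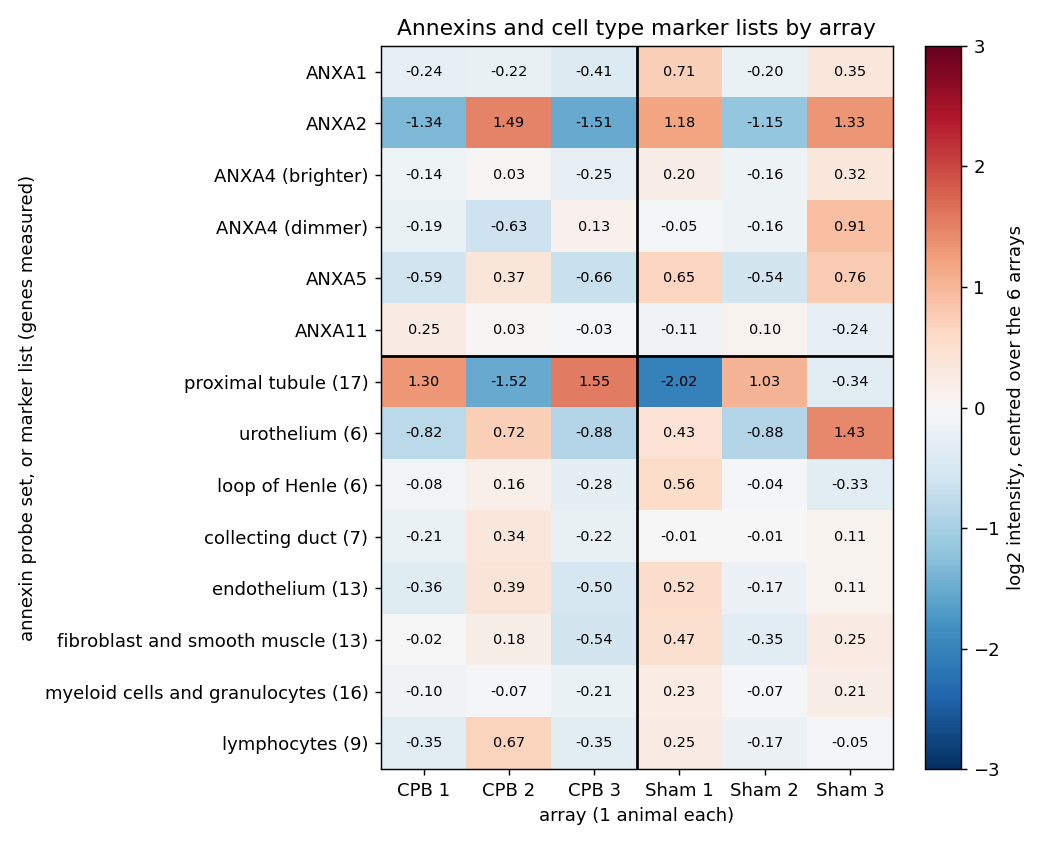
Log2 intensity centred over the 6 arrays for the annexin probe sets (upper rows) and mean centred log2 intensity of the cell type marker lists (lower rows, number of genes measured in brackets), with CPB arrays left and Sham arrays right of the line. ANXA2 is at 1.49 in CPB 2, 1.18 in Sham 1 and 1.33 in Sham 3, where the proximal tubule markers are at -1.52, -2.02 and -0.34.

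Partners of the annexins were taken from a list of 39 genes, of which 25 were measured. In CPB 14 of them had a lower and 11 a higher mean, the median log2 difference was -0.04, and none met the study's threshold or had an unadjusted p under 0.05. S100A10, the partner of ANXA2, was at 3034.7, 4517.8 and 4295.5 in CPB 1, CPB 2 and CPB 3, against 3344.3, 3403.4 and 4428.1 in Sham 1, Sham 2 and Sham 3. It did not share the levels of ANXA2, since CPB 3, the lowest animal for ANXA2, was among the highest for S100A10 and Sham 1 among the lowest. The log2 difference of S100A10 was 0.07 (standard error 0.20, 95% confidence interval -0.43 to 0.58; limma adjusted p = 0.995).

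S100A11, which binds the N-terminal tail of ANXA1, was at 1229.3, 2274.7 and 946.6 in CPB 1, CPB 2 and CPB 3, against 2251.9, 1290.7 and 2012.9 in Sham 1, Sham 2 and Sham 3. Its high animals were those of ANXA2 and ANXA5, and unlike ANXA1 it was high in CPB 2. S100A11 differed by -0.38 on the log2 scale (standard error 0.38, 95% confidence interval -1.30 to 0.54; limma adjusted p = 0.995). PLAT, the tissue plasminogen activator that the ANXA2 complex binds, was picked out after its values were seen. It was at 270, 587.8 and 165.6 in CPB 1, CPB 2 and CPB 3, against 678.1, 175.7 and 611 in Sham 1, Sham 2 and Sham 3. These are the same high and low animals as for ANXA2, at a log2 difference of -0.49 (standard error 0.67; limma adjusted p = 0.995). The pattern was not particular to PLAT, since CAPN1, CAV1, S100A4, DLG5 and KRT8 of the partner list had the same high animals. Plasminogen itself, PLG, ran the other way, at 91.5, 62.5 and 158.9 in CPB and 57.6, 80.1 and 64.1 in Sham. Its log2 difference was 0.54 (standard error 0.35; limma adjusted p = 0.995). PDCD6, the partner of ANXA11, differed by -0.10 (standard error 0.15; limma adjusted p = 0.995). S100A6 has no probe set with a single annotation entry and was not used here.

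For the 3 annexins with the widest range on their brightest probe set, the 5 genes with the most similar values over the 6 arrays were found among 10068 named probe sets, by the root mean square difference of centred log2 values. For ANXA2 these were GPRC5B, an orphan G protein-coupled receptor, at 0.16, PKIB, an inhibitor of protein kinase A, at 0.20, MAL2, a membrane protein of apical traffic, at 0.21, SELE, the endothelial selectin, at 0.23, and CXCL9, a chemokine induced by interferon gamma, at 0.24. GPRC5B, the most alike, was at 326.2, 2909.7 and 329.1 in CPB 1, CPB 2 and CPB 3, against 1690, 377.5 and 1967.5 in Sham 1, Sham 2 and Sham 3. These 5 genes were high in CPB 2, Sham 1 and Sham 3 and low in the other animals, as ANXA2 was.

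For ANXA5 the most alike were the actin-binding calponin CNN2 at 0.05, the nucleoporin gene NUP93 at 0.09, UST, a sulfotransferase of matrix glycosaminoglycans, at 0.09, the interferon receptor subunit IFNAR1 at 0.10, and the histone chaperone gene NAP1L1 at 0.10. For ANXA1 they were GADD45B, a stress-induced gene, at 0.06, DENND6A, a regulator of vesicle traffic, at 0.10, the tetraspanin TSPAN13 at 0.10, the cytokine IL15 at 0.10 and ORC4, a subunit of the origin recognition complex, at 0.10. IL15 was at 101.3, 90.8 and 97.1 in CPB 1, CPB 2 and CPB 3, against 178.9, 107.1 and 145.3 in Sham 1, Sham 2 and Sham 3. Every CPB animal thus lay below every Sham animal, as with ANXA1, and such likeness is what the search selects for. In GADD45B, DENND6A, TSPAN13 and ORC4 the groups overlapped, with Sham 2 below CPB 2. Likeness over 6 arrays is a description, since with so many probe sets some resemble any pattern.

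**Figure D5:**
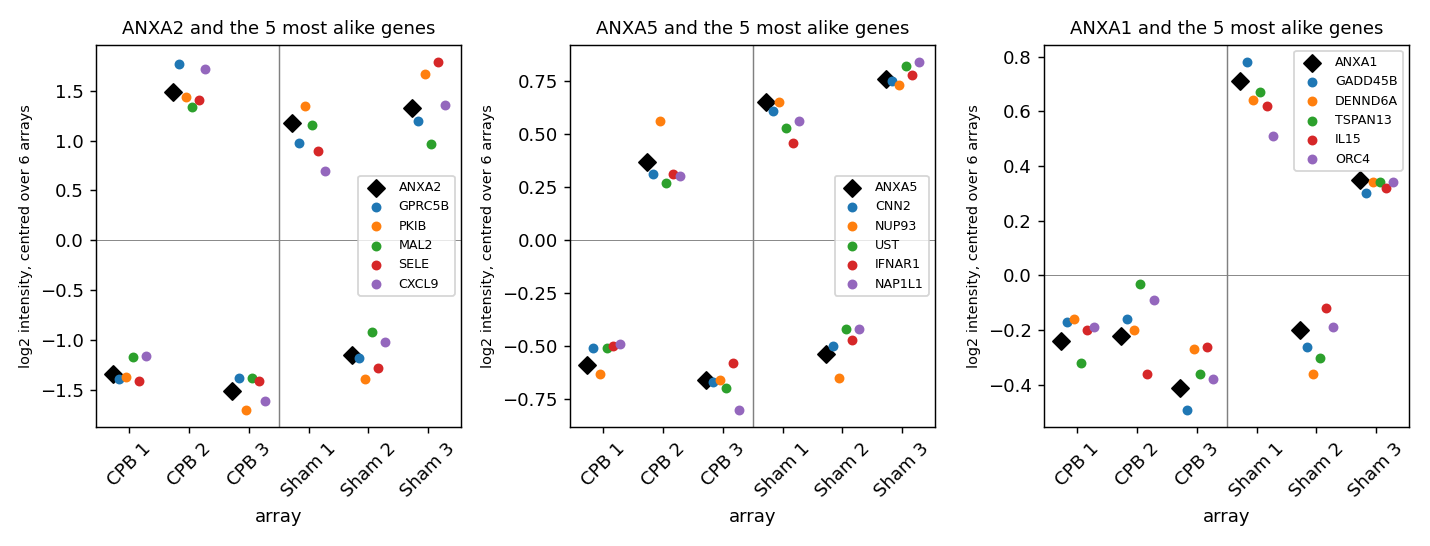
Log2 intensity, centred over the 6 arrays, of ANXA2, ANXA5 and ANXA1 (diamonds) and of the 5 named genes most alike to each (circles), by array, with CPB left and Sham right of the line. CPB 2 is high for ANXA2 and ANXA5 and their 5 genes, and below the mean for ANXA1, at -0.22, and its 5 genes.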

How the data were processed

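Total RNA from renal medulla of 3 CPB and 3 Sham pigs was hybridised to Affymetrix GeneChip Porcine Genome Arrays, 1 for each animal. The authors used GCOS 1.2 for the first analysis and quality report and applied RMA (background correction, quantile normalisation, median polish) in ArrayStar 2.1, and the submitters' processing notes name RMA. The deposited values are linear intensity for 24123 probe sets. Linear scale was read from their size, and log2 was taken here. The 124 control probe sets were left out. Signal over background is not known, and no genome build is named, so positions are not given.

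Probe sets were named from the array annotation where it gives 1 symbol (10099 probe sets), and the 5 annexin symbols were the same in the RefSeq table through the Entrez number. CPB and Sham were compared with limma 3.58.1 in R 4.3.3, with group as the only term, over 23999 probe sets. The test was tried on simulated data. For each list gene the probe set with the highest mean was used.

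All annexin probe sets were described. The likeness rule took the 3 annexins of widest range and 5 genes each, and partners were S100A10, S100A11, S100A6 and any with an unadjusted p under 0.05. The members, lists and alternatives were chosen with earlier results of these data known. The precision rests on 3 animals per group.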

Additional observations from a re-analysis of the deposited data

How the results depend on the processing

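No annexin probe set changed direction under any of the 17 alternatives. These were the methods' t-test (log2 or linear values), an intensity trend with a robust prior, array weights, a further quantile normalisation, centring on the median, leaving out dim probe sets, keeping control probe sets, a block for the replicate number, single arrays left out, CPB 2 and Sham 2 left out together, and the proximal tubule covariate. Several of them leave the log2 difference itself as it was and so could not change a direction. These are the t-test on log2 values, the trend with a robust prior, the replicate block, and leaving out dim or keeping control probe sets. The median annexin log2 difference stayed between -0.74 and -0.22 over all alternatives. The number of annexin probe sets at the study's threshold, 0 with all arrays, was 2 without Sham 2 (range 0 to 2 over the arrays left out), 3 with array weights and 3 without CPB 2 and Sham 2. It was 0 at fold minimums of 1.5 and 2, met by 104 and 21 of all probe sets. No fold minimum could change it, since no annexin had an unadjusted p under 0.05 in that fit. The number with an unadjusted p under 0.05 was 3 without Sham 2 (range 0 to 3), 5 with array weights, 4 without CPB 2 and Sham 2, and 1, ANXA1, with the further quantile normalisation (limma adjusted p = 0.991). Of all 23999 probe sets, 336 had such a p with all arrays, 2217 without Sham 2, 5486 with array weights, 5626 without CPB 2 and Sham 2 and 367 with the further quantile normalisation. Over all probe sets the number at the study's threshold was 73 with all arrays, 701 without Sham 2, 693 without CPB 2, 2116 with array weights, whose estimate stopped before it converged, and 3070 without CPB 2 and Sham 2. In the last of these ANXA2 differed by -2.68 and ANXA5 by -1.33, each with limma adjusted p = 0.0345, and ANXA1 by -0.85 (adjusted p = 0.0878). Those arrays were left out because their proximal tubule means had the opposite sign to the rest of their groups. The arrays that remain are the ones in which ANXA2 divides the groups, so these values support nothing on CPB.

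Animals of the same replicate number did not deviate alike from their group means, which cannot show whether they were handled together. The correlation of deviations from the group means, across probe sets, was -0.39, -0.68 and -0.02 for the animals numbered 1, 2 and 3. With the replicate block the counts of annexin probe sets at the study's threshold and with an unadjusted p under 0.05 stayed at 0, and the count over all probe sets at the study's threshold was 76. Intensity over background is not known for any probe set, so how far a dim level limits a difference was not assessed.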
